A study of Homo sapiens with 4 samples.

Results

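The genes described here encode the machinery of DNA replication, from the complexes that mark and license origins to the polymerases, the enzymes that supply nucleotides and the factors that rebuild chromatin behind the fork. The 55 genes were a fixed list of names, chosen by what their products do. Earlier results of these data were known when the list was made. Each gene was read from the probe sets annotated to it. They were 55 of the 19775 genes that the expression table holds under a single symbol.

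The table compares U937 cells, a human myelomonocytic leukemia line, that express the AML1/ETO fusion protein with control cells. AML1/ETO joins the DNA binding part of AML1 (RUNX1) to ETO (RUNX1T1) and arises from a chromosomal translocation in acute myeloid leukemia. U937-AE cells are a clone carrying HA-tagged AML1/ETO under the mouse metallothionein promoter, which zinc switches on, and U937-Mt cells are a bulk population that carries the empty vector. Both were kept for 8 hours in 100 µM ZnSO4, so zinc itself was common to the groups, whereas the fusion protein and the picking of a clone were not and cannot be told apart here. RNA from 3 extractions per line was pooled and labeled, and every pool was put on 2 HG-U133 Plus 2.0 arrays (Affymetrix). Each line is thus 1 sample, no test between the lines was possible, and the distance between its 2 arrays is hybridization error alone.

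Signals are given on the linear GCOS scale as deposited. The median signal, used as a floor for low values, was 119.5 and 129.7 for U937-AE and 146.8 and 153.6 for U937-Mt. A probe set for the ETO portion of the transgene, 216831_s_at, read 1361.5 and 1299 with the transgene and 8.6 and 7.6 without it, which matched the labels, while the other 6 of 7 RUNX1T1 probe sets were not called. Of 9 markers listed for a myelomonocytic line 7 had a probe set and 6 were measured (PTPRC was called higher, SPI1, LYZ, MPO and ELANE lower, and CD4 was not called). Of 10 markers of other cell types 8 had a probe set, with signals from 10.6 to 354.3, and 4 were measured (HBB, COL1A1 and COL1A2 above the floor on all 4 arrays, and MS4A1). Spike-in controls for hybridization (18 probe sets) had 1.27-fold more signal in U937-Mt.

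Replication starts when the origin recognition complex, together with CDC6 and CDT1, loads the MCM2 to MCM7 ring on DNA as an inactive helicase. The kinase of CDC7 and DBF4 then permits CDC45 and the GINS complex to join, which turns the ring into the active helicase, and polymerases alpha, delta and epsilon copy the opened strands with the help of the PCNA clamp. Most of these genes are transcribed in late G1 and S phase through E2F factors, so their transcript levels are widely read as a sign of proliferation.

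The replication genes were bright and, in the deposited scaling and with few exceptions, close to equal in the 2 lines. All 55 were above the floor on all 4 arrays, with signals between 510.3 and 27814.7. Pairing either U937-AE array with either U937-Mt array gives 4 comparisons, and a gene was called when they all passed 1.5-fold with 1 sign. By this rule 1 gene was called higher in U937-AE, GINS4, none was called lower, and 54 were not called. Of the 12934 measured genes, 2.6% were called higher and 6.12% lower. Because the replication genes were all bright, the same shares were taken over the 6510 measured genes at least as bright as the dimmest of them, where 3.35% were called higher and 4.36% lower. Among 55 genes the count of 1 higher is near these shares.

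The median log2 difference of the replication genes, U937-AE minus U937-Mt, was 0.04, beside -0.10 over all measured genes. It was 0.03 over the bright genes, those at least as bright as the dimmest replication gene. That set has only a lower limit of signal and is not matched to the replication genes in brightness. Single genes ranged from -0.48 for CHAF1B to 1.03 for GINS4, and the quartiles were -0.17 and 0.17. The absolute difference had a median of 0.17, against 0.28 over all measured genes and 0.22 over the bright ones. All 4 comparisons stayed within 1.5-fold for 49 genes (89.1%), compared with 58.9% of all measured genes and 76.6% of the bright ones, and within 1.25-fold for 33 genes (60%), compared with 28.0% and 43.1%. These shares hold for the deposited scaling and were not taken under others. For the replication genes, copies of 1 pool lay a median of 0.09 apart on the log2 scale in either line. Over all measured genes the median was 0.14 in U937-AE and 0.15 in U937-Mt, and over the bright ones 0.10 in either line. How far this distance enters the shares within 1.5-fold and 1.25-fold was not tested. The variation between cultures is not seen on these arrays. In bulk RNA, a change in the share of cells in S phase and a change in transcript per cell cannot be told apart.

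**Figure D1:**
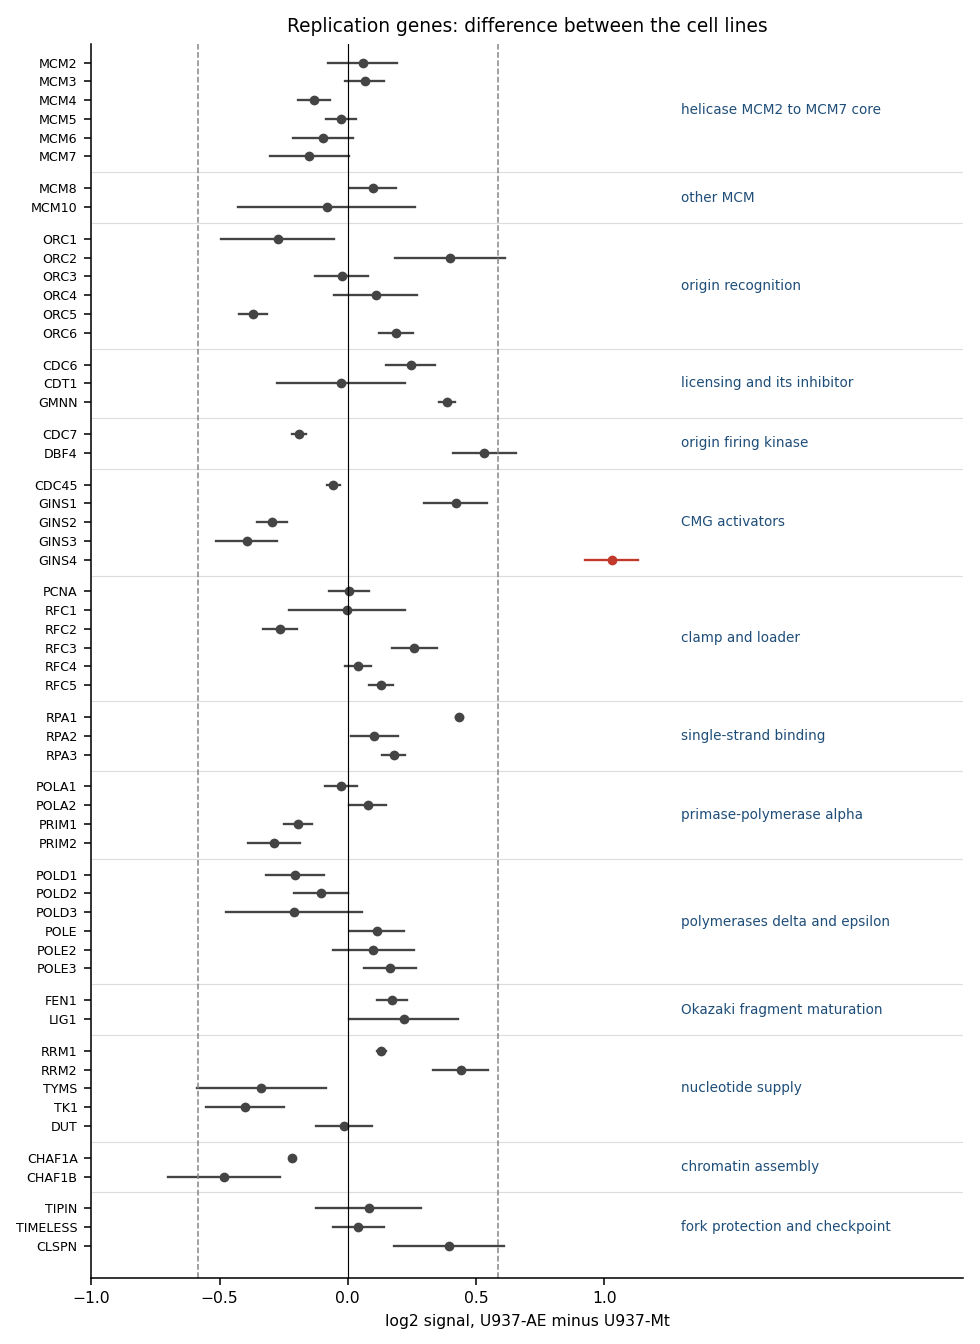
Log2 signal of U937-AE minus U937-Mt for each of the 55 replication genes, grouped by role. Points are the mean difference, bars run from the lowest to the highest of the 4 comparisons of arrays, dashed lines mark 1.5-fold, and GINS4 in red is the only gene whose 4 comparisons all passed it.

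The 2 U937-AE arrays lay above both U937-Mt arrays for 21 genes, below both for 16, and overlapped with them for 18. In percent, 38.2% were above and 29.1% below, whereas over all measured genes 25.4% were above and 38.5% below. Over the bright genes the shares were 38.9% and 31.4%, close to those of the replication genes. The counts for the replication genes turned with the scaling described next, to 15 above and 20 below under quantile normalization, 39 and 2 with equal medians, and 43 and 0 with spike-in scaling. Shares over all measured genes were not taken under these scalings, so these turned counts alone are no result about the replication genes.

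**Figure D2:**
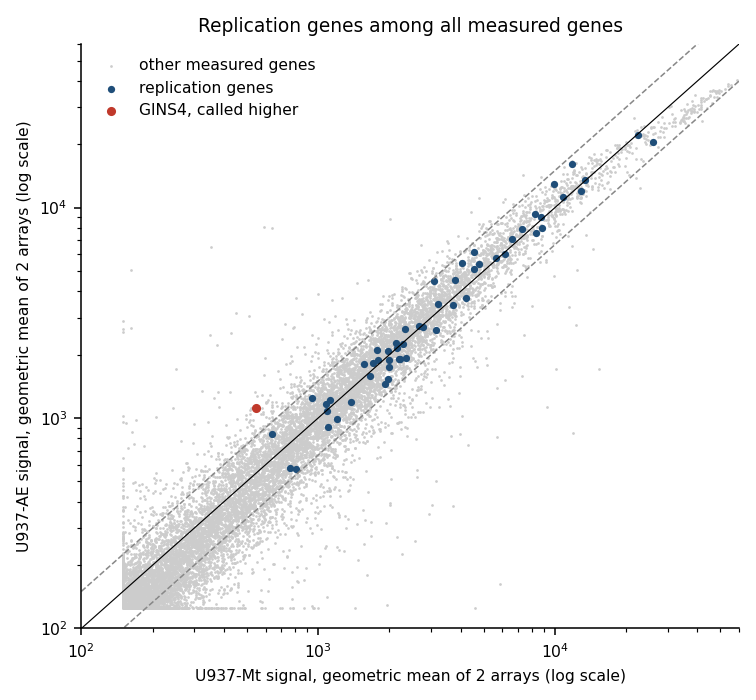
Geometric mean signal of the 2 arrays of U937-AE (vertical) against that of U937-Mt (horizontal), both on log axes, for all measured genes in grey and the replication genes in blue. The solid line marks equal signal and the dashed lines 1.5-fold, and apart from GINS4 in red the replication genes lie between the dashed lines in the bright part of the range.

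The direction of a small difference depended on how the arrays were scaled. The deposited values share 1 trimmed mean per array. Shifting the arrays to the same median signal added 0.27 to every log2 difference, and scaling them to the spike-ins added 0.34, so that the median over all measured genes moved from -0.10 to 0.17 and 0.24. The median of the replication genes moved with it, to 0.31 and 0.38, and 47 and 51 of 55 differences were then above 0, compared with 29 as deposited. As deposited, 5180 of the 12934 measured genes and 3515 of the 6510 bright ones were above 0. Such counts were not taken over all measured genes after the shifts, so 47 and 51 are no result about the replication genes. The genes called higher became 5 with equal medians (GMNN, DBF4, GINS4, RPA1 and RRM2) and 8 with the spike-ins (GINS1, RFC3 and CLSPN in addition). With these scalings 7.04% and 10.6% of all measured genes were called higher. Quantile normalization gave a median of -0.01, beside -0.03 over all measured genes, with 26 differences above 0 and 29 below. GINS4 was then the single call, and 2.88% of all measured genes were called higher. A shift leaves the distances between replication genes as they are. Differences, folds and signs below refer to the deposited scaling unless stated.

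**Figure D3:**
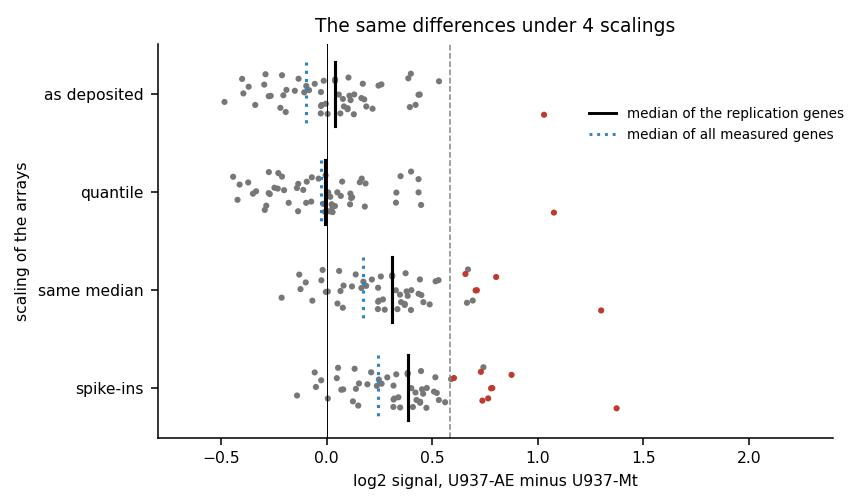
Log2 difference of the 55 replication genes under 4 scalings of the arrays. Each point is a gene, red where all 4 comparisons passed 1.5-fold, the black bar is their median, the dotted bar the median of all measured genes, and the dashed line marks 1.5-fold. Both bars move together to the right when arrays are set to the same median or to the spike-ins, and red points increase from 1 to 5 and 8.

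Promoter sequence was one property that the choice of the genes had not used. RefSeq promoter windows of 300 bases, from 250 before to 50 after a transcription start (build GRCh38.p14), were on hand for 49 of the 55 genes, in 67 windows, since some genes have several starts. An E2F word, here TTTCCCGC, TTTCGCGC, TTTGCCGC or TTTGGCGC on either strand, was present in 24 of the 67 windows (35.8%), whereas 3.31% of all 35116 windows held one. The NF-Y word CCAAT, also on either strand, stood in 34 (50.7%) against 34.6% of all windows. An E2F and an NF-Y word occurred together in 13 windows (19.4%) against 1.22% of all. The RUNX word TGTGGT, a form of the AML1 core sequence TGT/cGGT, was in 5 windows (7.46%) against 13.1% of all. These were windows of MCM2, ORC4, POLE, PRIM1 and RFC2. The form of the core with C was not searched, so these shares do not cover all AML1 sites. TATAAA was in 3 windows (4.48%) against 11.5%. A matching word is a description of the sequence and no evidence that a factor was bound.

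The 150 bases before the most upstream start are shown 5′ to 3′ on the strand of the gene, with E2F and NF-Y words in capitals. PCNA (chr20:5126623-5126772, minus strand) and MCM6 (chr2:135876444-135876593, minus strand) are given as examples with both kinds of word. CDC6 (chr17:40287729-40287878, plus strand) is given as an example with 3 NF-Y words. It held no E2F word in this stretch, although its full window did. In MCM6 an E2F word on each strand overlaps in the longer run of capitals. RPA1 (chr17:1829855-1830004, plus strand), RRM2 (chr2:10122418-10122567, plus strand) and CHAF1B (chr21:36385242-36385391, plus strand) are given because their differences, described below, are among the largest. RPA1 held 1 NF-Y word in this stretch, and RRM2 and CHAF1B held no E2F or NF-Y word in it.
PCNA: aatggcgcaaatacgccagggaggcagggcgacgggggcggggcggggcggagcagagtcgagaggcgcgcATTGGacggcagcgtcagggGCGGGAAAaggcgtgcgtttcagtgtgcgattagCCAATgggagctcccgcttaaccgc
MCM6: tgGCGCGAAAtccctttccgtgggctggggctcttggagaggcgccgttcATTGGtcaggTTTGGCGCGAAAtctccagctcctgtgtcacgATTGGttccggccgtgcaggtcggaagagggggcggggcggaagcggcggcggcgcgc
CDC6: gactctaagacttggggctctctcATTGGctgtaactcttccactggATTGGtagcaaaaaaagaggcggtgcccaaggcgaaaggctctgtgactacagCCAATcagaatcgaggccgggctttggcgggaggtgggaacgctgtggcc
RPA1: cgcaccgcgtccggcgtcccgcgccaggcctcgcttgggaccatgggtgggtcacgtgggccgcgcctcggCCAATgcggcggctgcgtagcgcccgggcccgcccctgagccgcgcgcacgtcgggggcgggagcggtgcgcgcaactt
RRM2: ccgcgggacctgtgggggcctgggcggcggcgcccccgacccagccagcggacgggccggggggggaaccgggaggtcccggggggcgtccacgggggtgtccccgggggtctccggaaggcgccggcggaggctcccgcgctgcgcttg
CHAF1B: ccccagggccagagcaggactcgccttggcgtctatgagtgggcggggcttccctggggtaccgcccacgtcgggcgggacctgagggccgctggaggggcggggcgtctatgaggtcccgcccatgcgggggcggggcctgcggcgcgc

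The 24 genes with an E2F word in a window had differences from -0.39 to 0.42 with a median of 0.06, and the 25 without had differences from -0.48 to 0.53 with a median of -0.00. The ranges covered each other almost entirely. GINS4, the only called gene, had no promoter window and is in none of these groups. The 5 genes with the RUNX word lay between -0.26 and 0.11, inside the range of the rest. CDC45, GINS3 and TK1, whose windows held TATAAA, had differences of -0.06, -0.39 and -0.40.

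**Figure D4:**
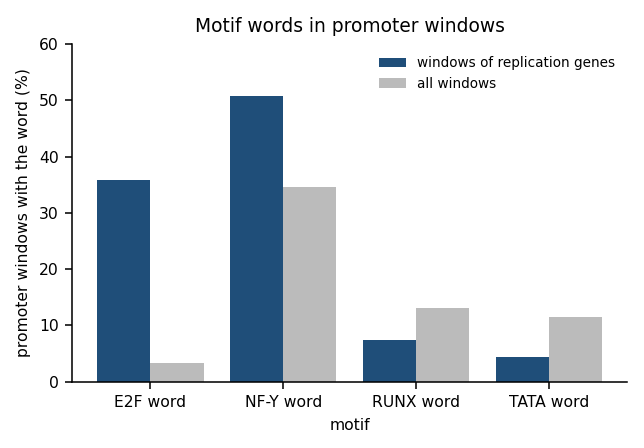
Percent of promoter windows that hold at least 1 match to the words of each factor, for the 67 windows of replication genes (blue) and for all 35116 windows (grey). The E2F bar stands at 35.8% for the replication genes and at 3.31% for all windows, while the RUNX and TATA bars are lower for the replication genes.

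The subunits of the origin recognition complex, which marks where replication begins, lay on both sides of 0. ORC2 read 1301.9 and 1185.6 in U937-AE but 850.0 and 1044.2 in U937-Mt, a difference of 0.40, but its second probe set differed by -0.15. ORC5 went the other way, with 1504.2 and 1555.5 against 1934.8 and 2016.3, a difference of -0.37 that its second measured probe set repeated at -0.39. Even with equal medians or spike-in scaling ORC5 remained below 0, at -0.10 and -0.03. ORC1, the subunit that varies with the cell cycle, had 1087.0 and 902.8 against 1128.3 and 1270.8, and its difference of -0.27 turned to 0.07 with the spike-ins. ORC6 differed by 0.19 and ORC4 by 0.11, and ORC3 had overlapping arrays and a difference of -0.02.

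Of the licensing factors, CDC6, the ATPase that helps load the helicase, was higher on both U937-AE arrays, with 2142.0 and 2076.1 against 1870.3 and 1690.6. The difference of 0.25 was repeated by the second probe set at 0.23. CDT1, its partner in loading, showed 2967.6 and 2480.3 against 2542.2 and 3003.2, and the arrays of the lines overlapped. GMNN encodes geminin, which binds CDT1 and blocks a second round of licensing. Its signals of 13002.6 and 12891.2 in U937-AE stood clear of 9725.6 and 10076.3 in U937-Mt, and all comparisons lay between 1.28-fold and 1.34-fold.

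The 6 subunits of the MCM2 to MCM7 helicase were the only group of more than 3 genes in which all 4 comparisons of every gene stayed within 1.25-fold, by the brightest probe set of each. Their differences ran from -0.15 for MCM7 to 0.07 for MCM3, and 5 of 6 had overlapping arrays. MCM2 gave 9165.7 and 8964.9 against 9461.6 and 8014.6. MCM3 gave 11203.8 and 11323.8 against 11284.7 and 10268.6. MCM6 gave 12161.3 and 11860.3 against 13738.5 and 11990.9. In each of these the spread between the U937-Mt copies was wider than the difference between the lines. MCM4 was the exception to the overlap, with 7403.0 and 7748.6 below 8474.6 and 8132.1, a difference of -0.13 that its 3 other measured probe sets shared in sign (-0.30 to -0.11 over all 4). Dimmer probe sets were less even, with -0.21 for MCM5 (201755_at), -0.42 for MCM6 (238977_at, up to 1.53-fold lower) and 0.21 for MCM7 (210983_s_at, both U937-AE arrays above), the last opposite in sign to the brightest. With equal medians or the spike-ins all 6 subunits were above 0, at 0.12 to 0.34 and 0.19 to 0.41, and none was called. MCM8 and MCM10, which are not part of the ring, differed by 0.10 and -0.08, and the probe sets of MCM10 ran from -0.08 to 0.36.

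The kinase that fires origins showed its subunits on opposite sides. DBF4, the regulatory subunit that has to accumulate before S phase, read 4613.8 and 4329.0 in U937-AE but 3256.3 and 2931.7 in U937-Mt. This was the largest difference among replication genes that were not called, 1.45-fold on average, and its comparisons ran from 1.33-fold to 1.57-fold. CDC7, the catalytic subunit, was lower at 1723.4 and 1778.0 against 2001.3 and 1992.0, a difference of -0.19 that became 0.08 with equal medians and 0.15 with the spike-ins.

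The subunits of GINS, an activator of the helicase, lay on both sides of 0. GINS1 gave 6395.3 and 5856.4 against 4759.2 and 4386.5, a difference of 0.42. GINS2 gave 1960.5 and 1882.7 against 2307.7 and 2406.8, a difference of -0.29. GINS3 gave 573.2 and 581.6 against 818.1 and 703.3, a difference of -0.39. With the spike-ins GINS2 turned to 0.05 and GINS3 stayed below 0 at -0.05. No arrays overlapped in these 3, although the second measured probe set of GINS2 differed by -0.05 with overlapping arrays, and that of GINS3 by 0.05. CDC45, which joins GINS on the helicase, was nearly level, at 1620.4 and 1565.6 against 1655.1 and 1656.1.

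GINS4 was the called member. Its brightest probe set, 211767_at, read 1043.9 and 1201.3 in U937-AE but 549.5 and 547.5 in U937-Mt, 2.04-fold higher with comparisons from 1.90-fold to 2.19-fold. In the deposited scaling the other 3 probe sets of the gene, all dimmer, leaned the other way. They gave 284.9 and 384.0 against 451.3 and 367.6 (235029_at), 124.8 and 164.7 against 225.8 and 198.8 (240778_at), and 127.0 and 120.1 against 131.3 and 185.0 (1554356_at). Their differences were -0.30, -0.56 and -0.36, and none was called. The first had overlapping arrays, and the last had an array at the floor in each line. A probe set at the floor on all 4 arrays reads -0.27 in this scaling. Equal medians add 0.27 and the spike-ins 0.34 to every difference. These 3 probe sets were not read under those scalings. Averaging the 4 probe sets of the gene gave -0.05 in the deposited scaling. No source used here gives the positions of these probe sets on GINS4 transcripts, and the call rests on 1 probe set of 4.

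**Figure D5:**
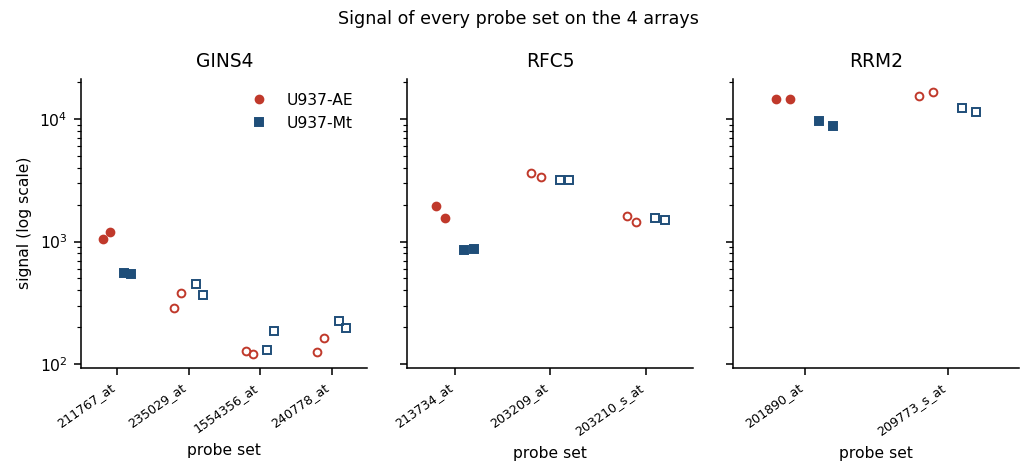
Signal, on a log axis, of every probe set of GINS4, RFC5 and RRM2 on the 2 arrays of U937-AE (circles) and the 2 of U937-Mt (squares), filled where the probe set was called. One filled probe set stands in each panel, and in GINS4 the open ones lean in the opposite direction in the deposited scaling.

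PCNA, the sliding clamp that holds polymerases on DNA, was nearly equal between the lines, with 13551.5 and 13409.6 against 14106.7 and 12791.8 and a difference of 0.01. Its loader RFC is a ring of 5 subunits, and their brightest probe sets differed by -0.00 (RFC1), -0.26 (RFC2), 0.26 (RFC3), 0.04 (RFC4) and 0.13 (RFC5). RFC2 repeated its value in a second probe set at -0.25, although equal medians brought it to 0.01, and RFC3 had 0.53 and -0.21 in the other two. RFC5 was the case where probe sets parted most within the loader. Its brightest, 203209_at, gave 3619.6 and 3387.3 against 3202.0 and 3201.2, and 203210_s_at differed by -0.00. The remaining one, 213734_at, gave 1961.4 and 1546.0 against 852.8 and 876.5, which was 2.01-fold higher and called.

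All 3 subunits of RPA, the protein that coats single-stranded DNA, were higher on both U937-AE arrays, but under quantile normalization the difference of RPA2 was -0.00. RPA1 gave 5471.7 and 5455.0 against 4068.4 and 4011.6, and its comparisons lay between 1.34-fold and 1.36-fold. The other two probe sets differed by 0.32 and -0.07. RPA2 differed by 0.10 and RPA3 by 0.18.

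Among the listed genes for enzymes that start and extend strands, no difference reached 1.25-fold on average. In the primase and polymerase alpha complex POLA1 differed by -0.03, POLA2 by 0.08, PRIM1 by -0.19 and PRIM2 by -0.29. PRIM1, the catalytic subunit of primase, gave 3739.4 and 3660.6 against 4344.5 and 4119.2, and PRIM2, the large subunit, 966.9 and 842.4 against 1103.7 and 1101.5. Both primase subunits were above 0 with the spike-ins, at 0.15 and 0.05. For POLA2 the other two probe sets differed by -0.10 and -0.72 and were not called. The 3 listed subunits of polymerase delta, which copies mainly the lagging strand, had differences below 0, with POLD1 at -0.20, POLD2 at -0.11 and POLD3 at -0.21, while the 3 listed for polymerase epsilon, which copies mainly the leading strand, had differences above 0, with POLE at 0.11, POLE2 at 0.10 and POLE3 at 0.17. With equal medians or the spike-ins these 6 were above 0. The remaining subunits, POLD4 and POLE4, are not among the 55 genes and were looked up after the values were seen. POLD4 gave 201.6 and 324.4 against 394.3 and 394.3, a difference of -0.62 that was not called and stayed below 0 at -0.35 with equal medians and -0.28 with the spike-ins. POLE4 differed by 0.15 with overlapping arrays. Among the listed subunits, the arrays of POLD3 and POLE2 overlapped, and those of POLD2 were separated by less than 1 unit of signal, 3552.1 against 3552.8.

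FEN1, which trims the flaps of Okazaki fragments, and LIG1, which seals them, differed by 0.17 and 0.22 and were higher on both U937-AE arrays. For LIG1 the lowest U937-AE signal, 1759.6, was hardly above the highest U937-Mt signal, 1751.3.

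The enzymes of nucleotide supply lay on both sides of 0. TYMS, thymidylate synthase, read 18493.2 and 22673.3 in U937-AE but 27814.7 and 24065.0 in U937-Mt, a difference of -0.34 with comparisons from -0.59 to -0.09. TK1, the thymidine kinase of the salvage route, gave 1611.7 and 1319.6 against 1913.0 and 1934.6, a difference of -0.40, whereas its second probe set differed by -0.07. With the spike-ins TYMS came to 0.01, and TK1 stayed below 0 at -0.06. Copies of these lay far apart in U937-AE, at 0.29 on the log2 scale for both genes. DUT, which removes dUTP, gave 21100.1 and 23262.9 against 22961.8 and 21775.9, and its arrays overlapped.

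RRM2, the inducible subunit of ribonucleotide reductase, lay on the other side from TYMS and TK1. Its brightest probe set, 209773_s_at, gave 15536.1 and 16596.3 against 12322.5 and 11348.7, 1.36-fold higher. Its second, 201890_at, gave 14586.6 and 14505.4 against 9563.0 and 8795.7, 1.59-fold higher and called, since the comparisons ran from 1.52-fold to 1.66-fold. RRM1, the large subunit, differed by 0.13 in 1 probe set and by -0.11 in another.

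Both genes listed for CAF-1, which deposits histones on new DNA, were lower as deposited by their brightest probe sets. Only CHAF1B stayed below 0 with equal medians (-0.21) and with the spike-ins (-0.14). CHAF1B, the middle subunit, gave 510.3 and 648.1 against 829.6 and 778.8. This difference of -0.48 was the lowest of the 55, and the copies in U937-AE lay 0.34 apart. Without the brighter one of them (U937-AE replicate 2) the gene was called lower, as were 11% of all measured genes. CHAF1A, the large subunit, gave 1922.0 and 1906.6 against 2228.8 and 2225.8, a difference of -0.22 that became 0.05 with equal medians and 0.13 with the spike-ins. Its other measured probe sets differed by -0.16 and -0.00, both with overlapping arrays. The remaining subunit RBBP4, which also serves other complexes, is not among the 55 genes and was looked up after the values were seen. It lay on the other side, with 8218.5 and 8168.0 against 6732.6 and 6811.4, a difference of 0.27.

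The factors that protect forks were TIMELESS and TIPIN, which form a complex, and CLSPN (claspin), the adaptor that passes the checkpoint signal to CHK1. TIMELESS and TIPIN differed by 0.04 and 0.08 with overlapping arrays. CLSPN gave 853.8 and 823.2 against 727.0 and 559.6, a difference of 0.39, and its 4 probe sets were all above 0, from 0.21 to 0.65. The arrays overlapped for 219621_at (0.24) and 242150_at (0.21), each with a U937-Mt array at the floor.

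Probe sets of 1 gene were a check on these readings that the highest signal alone does not give. The 55 genes had 104 probe sets, of which 98 were measured, and 3 of these were called higher and 0 lower. The share of all 23499 measured probe sets called was 2.66% higher and 5.37% lower. The 3 were 1 each for GINS4, RFC5 and RRM2, described above. Of the 29 genes with more than 1 measured probe set, 18 had all differences on 1 side of 0 and 11 had differences on both sides. The lowest and the highest difference of a gene lay a median of 0.22 apart on the log2 scale.

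Of 48 further genes of the replication pathway that are not among the 55, 47 were measured. Of these 2 were called higher, 0 lower, and the median difference was 0.10. ESCO2, which acetylates cohesin during S phase, gave 784.6 and 744.0 against 365.3 and 336.5, 2.18-fold higher. CCNE2, cyclin E2, which drives entry into S phase with CDK2, gave 3855.8 and 3689.8 against 2308.6 and 2297.0, 1.64-fold higher. The others ranged from -0.68 to 0.79 and were not called. The upper end was DNA2, a nuclease and helicase, named after its values were seen, with 1385.1 and 1236.4 against 610.4 and 941.7. Its difference was larger than that of CCNE2, but its comparisons ran from 1.31-fold to 2.27-fold. All 20 mitotic genes listed beside them were measured and none was called, with a median of 0.12 and a range from -0.35 to 0.61. Their part in the differences of the replication genes was not tested.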

How the data were processed

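Pooled RNA of both lines was measured on 4 Affymetrix HG-U133 Plus 2.0 arrays, 2 copies of 1 RNA pool per line, and the number of arrays limits the precision. The deposited values are signal intensities on a linear scale, 1 per probe set and array, which the authors computed with GCOS at default settings (version not given in the sources used here). GCOS scales each array to one mean after trimming 2% at each end. The table has 54675 probe sets, 62 of them controls. Symbols came from the platform annotation, updated by gene identifier. Of the probe sets, 41097 had 1 symbol, 1801 several and 11777 none, and those with several, among them 4 that name PRIM2 with another gene, were not used.

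Intensities below the 50th percentile of an array were raised to it and log2 was taken. A gene took its brightest probe set by mean log2 signal before the floor, and was called when all 4 comparisons exceeded 1.5-fold in 1 direction. It was measured where its mean reached the mean floor in at least 1 pool. The rule and limma were tested on simulated data. Members and lists were chosen with earlier results of these data known. Values on each array were given for called genes, the 3 brightest not called, the 4 largest differences each way, genes whose probe sets differed in call, and others that illustrate a complex. Alternatives changed the scaling, floor, fold, probe set or test, or left out an array. The set of genes at least as bright as the dimmest replication gene (a signal of 661.8) was added after the data were seen. Motif words were searched on both strands of RefSeq promoter windows. Python 3.11.15, numpy 2.4.6, pandas 2.3.3, scipy 1.17.1, matplotlib 3.10.9, R 4.3.3 and limma 3.58.1 were used.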

Additional observations from a re-analysis of the deposited data

How the results depend on the processing

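GINS4 was the only replication gene called higher, and none was called lower, under quantile normalization, without a floor, with the floor moved to the 25th or the 75th percentile, with limma at an adjusted p under 0.05 and 1.5-fold, and by the methods' t-test at 2-fold. The genes called higher became 5 with arrays shifted to the same median, 8 with spike-in scaling, 2 when _x_at and _s_at probe sets were dropped (GINS4 and RRM2, of 40 genes then measured), and 0 with 2-fold in all comparisons, with the mean over the probe sets of a gene, or by the t-test after Benjamini-Hochberg, which called no gene of the table. Without _x_at and _s_at probe sets, 2.61% of all measured genes were called higher. The share was 7.04% with equal medians and 10.6% with the spike-ins. It was 0.758% with 2-fold in all comparisons and 1.71% with the mean over probe sets. With the mean over probe sets GINS4 itself reversed to -0.0487 in the deposited scaling. Leaving out each array in turn gave 1 gene higher each time and 0 to 1 lower, the latter being CHAF1B without U937-AE replicate 2. Of all measured genes, 3.46% to 4.21% were then called higher and 8.62% to 12% lower.

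The median difference of the replication genes, 0.04, was -0.0073 under quantile normalization, 0.31 with equal medians, 0.38 with the spike-ins, 0.00506 with the mean over probe sets, -0.036 without _x_at and _s_at probe sets, and 0.0231 to 0.0577 with 1 array left out. With the array number as a replicate block, limma called 1 gene higher and 0 lower at 1.5-fold, as without it, while at the adjusted p alone the block raised the replication genes passing from 2 to 4 (2075 to 3004 of all measured genes). At 1.5-fold with the block, 4.41% of all measured genes were called higher and 11.1% lower. The correlation of deviations between arrays of the same number was 0.049, so the numbers were not taken to pair the arrays. The p-values of limma cover the spread between copies of 1 pool only. The adjusted p of GINS4 was 0.00748 by limma, and that of DBF4, at 0.53 on the log2 scale and higher in all comparisons, was 0.0413. With the block RPA1 (0.0417) and GINS1 (0.045) passed as well by limma.

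With 1 pool per line, no alternative bears on the variation between cultures or clones. The sources used here do not say where probe sets lie on transcripts. All 55 genes were well above the median signal, so the floor did not limit their values, whereas 6 of their 104 probe sets were not measured.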
